A study of Mus musculus with 204 samples.

Results

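The effect of a fat-rich diet on the mouse liver was read from 10 liver RNA sequencing libraries of a tissue atlas of 102 DIO and 102 lean libraries. They were chosen by their titles, which name the tissue as liver, and comprise 5 libraries from diet-induced obese (DIO) and 5 from lean mice. Tested were all 1699 genes that averaged 10 or more CPM, a gene's reads scaled to a common library total, in these libraries. The mice were wild-type male C57BL/6J, an inbred strain that becomes obese on fat-rich food. DIO mice were placed on a diet with 60% fat at 4 weeks of age and ate it for 10 weeks, and lean mice stayed on chow with 13.1% fat. The labels also state an older age on arrival, so the age at death is not given here. Both groups had food and water at will, and the labels give no feeding state or hour of death. RNA came from frozen pieces of tissue, so each library holds all cell types of a piece of liver. Only males of 1 strain were studied. Nothing in the labels links a liver to a mouse used for another tissue. The p-values measure the spread between these libraries, which were treated as 1 sample each.

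The liver stores and burns fat, makes bile acids from cholesterol, clears drugs and steroids, and secretes most plasma proteins. Fatty acids that enter hepatocytes are either rebuilt into triglyceride and kept in lipid droplets, or taken into mitochondria and peroxisomes and shortened by beta-oxidation, with ketone bodies as one product. New fatty acids are built in the cytosol from sugar-derived carbon. In male mice some liver enzymes, among them members of the steroid dehydrogenase family, are set by sex hormones and the pattern of growth hormone release.

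Libraries held 19.72 M to 27.99 M reads. Of these, 17.08% to 18.26% fell on the genes of the deposited table, which covers chromosomes 1, 2, 3 and X and the start of chromosome 4, and all counts of genes below are counts within it. The libraries carried the label's tissue: 15 hepatocyte genes, among them the fibrinogen genes Fga, Fgb and Fgg and the urea cycle genes Cps1 and Otc, summed to between 30618 and 33487 CPM in DIO and between 35169 and 39380 CPM in lean libraries. Of 10 markers of other tissues 1, the pancreatic amylase gene Amy2a5, was at 0 in all 10 libraries. The 10 markers, among them Fabp2 and Fabp4, summed to 287 to 325 CPM in DIO and 199 to 242 CPM in lean libraries. Correlations of log2(CPM + 1) over the tested genes ran from 0.9654 to 0.9936 between libraries of the same diet and from 0.9393 to 0.9739 between diets. The first principal component took 55.7% of the variance and placed all 5 DIO libraries on one side of 0 and all 5 lean libraries on the other.

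With diet, 355 genes rose and 103 fell past an adjusted p of 0.05 in limma, which is 20.9% and 6.06% of the genes tested. Most changes were small: the median size among the 458 genes was 0.391 on the log2 scale, and 24 genes rose and 11 fell at least 2-fold on log2(CPM + 1). In 283 of the 458 the 5 DIO libraries did not overlap the 5 lean ones. Over all genes tested 297 (17.5%) did not overlap. The 458 were picked by a diet test on the same libraries, so their higher share follows from that choice. Of the 1699 genes, 77 averaged under 10 CPM in one of the diets and passed the filter on low values through the other.

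The balance of rises and falls depended on the scaling. CPM of all genes centred on a log2 change of 0.089, and rescaling the libraries by median-of-ratios factors over the genes of the table moved that centre to -0.041, a shift of 0.13. After rescaling, 150 genes were higher (8.83%) and 214 lower (12.6%) in DIO, in place of 355 and 103. Of the 458 genes, 253 passed again in the same direction and 0 in the opposite one. Changes are given below on the CPM scale, with the rescaled value where the call or direction depends on it.

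**Figure D1:**
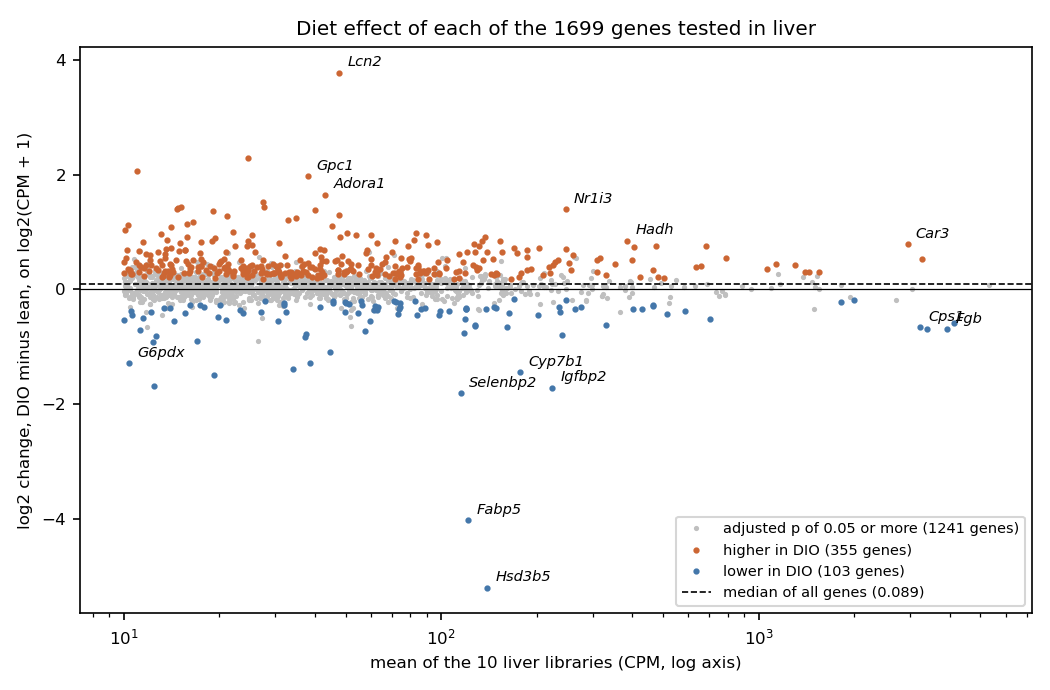
Log2 change between diets of each gene tested in liver (vertical axis, DIO minus lean on log2(CPM + 1)) against its mean level over the 10 libraries (horizontal log axis, CPM). Each point is a gene, coloured where it passed an adjusted p of 0.05, and the dashed line is the median of all genes at 0.089. Hsd3b5 and Fabp5 lie lowest and Lcn2 highest.

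A second measure moved with diet in these libraries. It is an index of 10 genes, 5 of which count positively (Rpl39, Cops9, Rpl22l1, Atp5e and Ndufc1) and 5 negatively (Ncoa6, Ubap2l, S100a1, Dynlrb1 and Kantr), taken as the difference of the 2 means of log2 values. The index had been found in earlier work on these data to differ among libraries of the same tissue and diet. It was 0.442, 0.467, 0.258, 0.355 and 0.503 in DIO 1 to 5 and 0.635, 0.597, 0.763, 0.926 and 0.582 in lean 1 to 5. The 2 diets did not overlap in it, so the index and the diet cannot be told apart in liver. With the index as a covariate 57 genes passed (3.35%), 39 higher and 18 lower, and 48 of them were among the 458. The direction of the change was the same with the covariate for 449 of the 458 genes. Of the 88 called genes named by rule, 66 did not pass with the covariate, and 2 further genes changed direction and did not pass either. Values with the covariate are given beside the main genes, and what the index stands for was not tested.

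**Figure D2:**
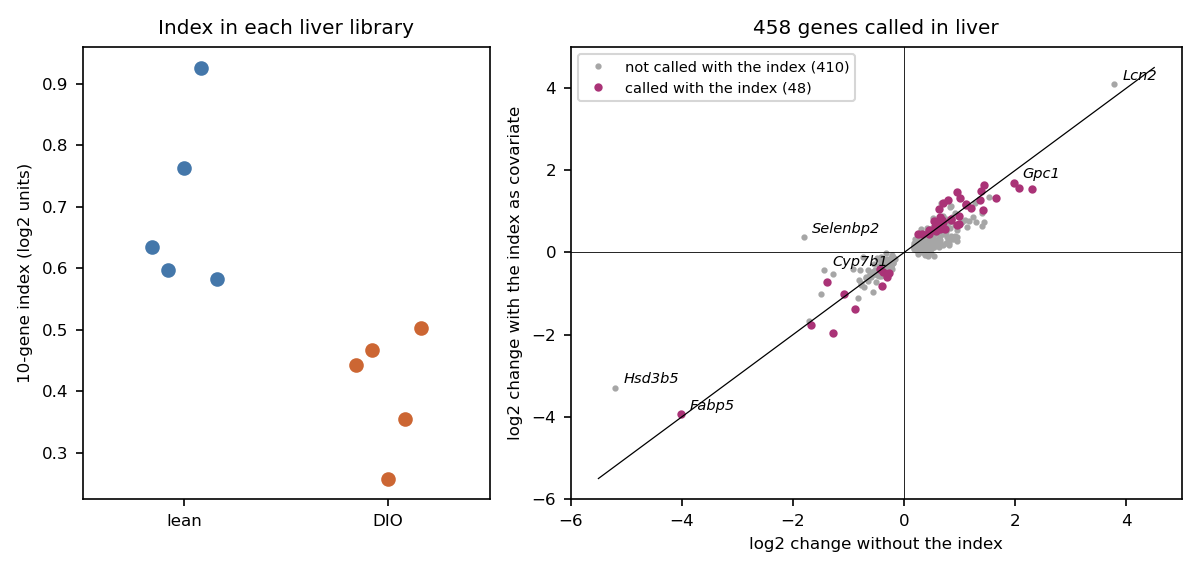
Left, the 10-gene index (log2 units) in each liver library by diet. Right, log2 change between diets of the 458 genes called in liver, fitted without the index (horizontal axis) and with it as a covariate (vertical axis), with the line of equality. DIO libraries lie between 0.258 and 0.503 and lean libraries between 0.582 and 0.926, and 48 genes passed in both fits.

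The largest fall was that of Hsd3b5, a 3-beta-hydroxysteroid dehydrogenase isoform of male mouse liver. It stood at 26.7, 4.12, 0.201, 2.89 and 27.9 CPM in DIO 1 to 5 and at 242, 250.4, 319, 315 and 206 CPM in lean 1 to 5. All DIO libraries lay far below the lowest lean library, and they also differed widely among themselves, with DIO 3 near 0 and DIO 1 and DIO 5 highest. The means were 12.4 ± 13.7 against 267 ± 49.3 CPM (SD, n = 5 per diet), which is 21.6-fold lower in DIO. The log2 change was -5.20 ± 0.73 (adjusted p = 0.000585), -5.30 (adjusted p = 0.00055) after rescaling and -3.29 (adjusted p = 0.112) with the index as covariate. Hsd3b5 has close relatives on the same chromosome whose reads can be shared. Of these, Hsd3b2 changed by -0.13 (adjusted p = 0.654) and Hsd3b3 by -0.02 (adjusted p = 0.909) on the log2 scale, neither past the threshold.

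The other members of the steroid dehydrogenase list that passed rose. The list had 9 tested genes, of which 4 rose, 1 fell (Hsd3b5) and 4 did not pass, against 3 rises and 1 fall after rescaling. Over all genes tested 20.9% rose and 6.06% fell, or 8.83% and 12.6% after rescaling. Hsd17b10, a mitochondrial dehydrogenase of short branched fatty acids and steroids, stood at 157, 147, 133, 170.3 and 176 CPM in DIO 1 to 5 and 118, 94.7, 97.2, 107 and 80.6 in lean 1 to 5. The groups did not overlap, the log2 change was 0.65 ± 0.11 (adjusted p = 0.00136), and it passed with the index as covariate at 0.86 (adjusted p = 0.0271). Hsd17b7, which also acts in cholesterol synthesis, rose from 68.7 ± 8.69 to 125 ± 35.2 CPM with a log2 change of 0.82 ± 0.17 (adjusted p = 0.00466).

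Fabp5, which encodes a fatty acid binding protein that carries fatty acids within cells, fell almost as far. Its levels were 17.3, 6.59, 11.4, 9.54 and 27.1 CPM in DIO 1 to 5 and 323, 256, 176, 205 and 185 CPM in lean 1 to 5. The highest DIO library was several times below the lowest lean one. Means of 14.4 ± 8.11 against 229 ± 61.1 CPM give a 15.9-fold lower level in DIO. The log2 change of Fabp5 was -4.02 ± 0.30 (adjusted p = 1.07e-05), and it was nearly the same with the index as covariate, -3.94 (adjusted p = 0.00567).

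Igfbp2, a secreted binding protein of insulin-like growth factors, fell from 339 ± 88.0 to 109.6 ± 52.9 CPM. Single libraries held 180.2, 59.9, 64.9, 94.7 and 148 CPM in DIO 1 to 5 and 388, 254, 361, 244 and 447 in lean 1 to 5, without overlap. Its log2 change was -1.71 ± 0.30 (adjusted p = 0.0019) and stayed at -1.67 with the covariate, where the adjusted p was 0.101. Others among the largest falls were Etnppl, which breaks down phosphoethanolamine, at -0.77 (adjusted p = 0.00418), Rapgef4, an exchange factor activated by cyclic AMP, at -0.65 (adjusted p = 0.00819), Kyat1, a kynurenine aminotransferase, at -0.63 (adjusted p = 0.00845), and the splicing factor gene Prpf6 at -0.56 (adjusted p = 0.00128). None of these 4 passed with the covariate.

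Among the rises, Lcn2 was the largest and the least even. This gene encodes lipocalin 2, an iron-siderophore binding protein of the acute phase. DIO 1 to 5 held 7.34, 393, 40.9, 16.1 and 12.6 CPM and lean 1 to 5 held 1.41, 1.99, 1.05, 2.03 and 0.490 CPM. DIO 2 stood far above the other DIO libraries, yet the lowest DIO library was still above the highest lean one. The ratio of the means, 94.0 ± 168 against 1.39 ± 0.652 CPM, was 67.5-fold, and without DIO 2 it was 13.8-fold with a DIO mean of 19.2 CPM. On the log2 scale Lcn2 rose by 3.78 ± 0.83 (adjusted p = 0.00701), and its adjusted p with the covariate was 0.149. Because the lean libraries averaged under 10 CPM, Lcn2 was tested only through its level in DIO, to which DIO 2 gave most. Without DIO 2 its DIO mean lay under the 50 CPM required of genes named as largest rises.

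Among genes without overlap that averaged 50 CPM or more in one diet, Gpc1 and Adora1 followed. Gpc1 is a heparan sulfate proteoglycan anchored to the cell surface, and Adora1 is an adenosine receptor. Gpc1 stood at 68.8, 53.9, 51.8, 63.4 and 66.9 CPM in DIO 1 to 5 and 16.4, 25.2, 12.8, 10.8 and 11.6 CPM in lean 1 to 5. The groups lay far apart, with a log2 change of 1.98 ± 0.19 (adjusted p = 6.34e-05) and of 1.70 (adjusted p = 0.0241) with the covariate. Adora1 stood at 53.1, 73.7, 59.7, 81.0 and 61.1 CPM in DIO 1 to 5 and 14.6, 28.9, 22.002, 14.7 and 23.1 CPM in lean 1 to 5, again without overlap. It changed by 1.65 ± 0.18 (adjusted p = 0.000116), and by 1.31 (adjusted p = 0.042) with the covariate. The other genes among the 12 largest rises at 50 CPM or more were Nr1i3, C730036E19Rik, Col3a1, Fnip2, Uck1, Fam107b, Srxn1, Fabp2 and Miga2. Of these, Fnip2, a partner of folliculin in nutrient signalling, rose by 1.11 ± 0.15 (adjusted p = 0.000583). Srxn1, which repairs oxidised peroxiredoxins, rose by 0.95 ± 0.18 (adjusted p = 0.00292), with DIO 3 highest at 106 CPM and lean libraries between 32.8 and 41.5 CPM. Uck1, a uridine-cytidine kinase, rose by 0.99 ± 0.11 (adjusted p = 0.000116) and passed with the covariate (adjusted p = 0.0345).

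**Figure D3:**
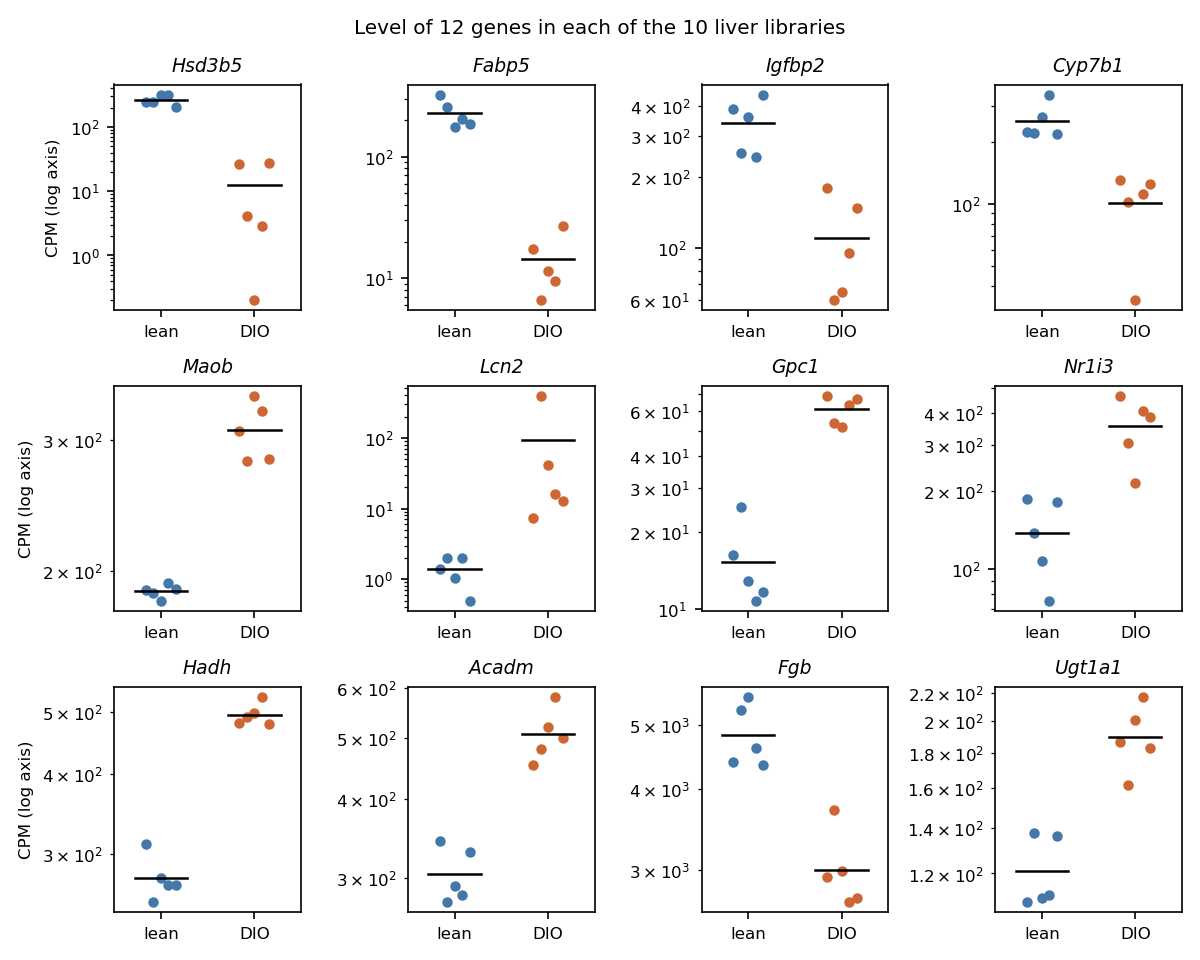
Level of 12 genes in each liver library (CPM, each panel with its own log axis). Points are single libraries of the 2 diets and bars are group means. In all 12 panels the lean and DIO points do not overlap, while their spread within a diet differs from narrow (Maob, Hadh) to wide (Lcn2, Hsd3b5). The rule that named Hsd3b5, Fabp5, Igfbp2, Cyp7b1, Lcn2, Gpc1, Nr1i3 and Fgb required that lack of overlap. Of all genes tested 17.5% did not overlap.

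Mitochondrial fatty acid oxidation and ketogenesis was the pathway with the largest share of risen genes among the lipid lists. Of 11 listed genes 10 were tested, with 8 rises and 0 falls, and the counts were the same after rescaling. Of all genes tested 20.9% rose, and 8.83% after rescaling. The median log2 change of the 10 was 0.490, against 0.089 over all genes tested, and 7 of the 10 did not overlap between diets, against 17.5% of all genes. With the index as covariate 2 of them passed, Hadh and Acadm, at a list median of 0.446.

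Acadm, the medium-chain acyl-CoA dehydrogenase that opens each round of beta-oxidation, stood at 453, 481, 520.3, 582 and 499 CPM in DIO 1 to 5 and 343, 274, 292, 281 and 329 CPM in lean 1 to 5. Every DIO library was above every lean one, and the log2 change was 0.74 ± 0.09 (adjusted p = 0.000184). Acadl, its long-chain relative, rose by 0.46 ± 0.09 (adjusted p = 0.00418). Etfdh, which passes the electrons of these dehydrogenases to the respiratory chain, rose by 0.44 ± 0.08 (adjusted p = 0.00239). Hadh, the dehydrogenase of the third step, stood at 481, 491, 498, 529 and 479 CPM in DIO 1 to 5 and 311, 252, 275, 268 and 268 CPM in lean 1 to 5. Both groups were narrow, and the change of 0.85 ± 0.07 (adjusted p = 1.07e-05) was 0.81 (adjusted p = 0.00676) with the covariate. Decr1, the dienoyl-CoA reductase needed for unsaturated fatty acids, rose from 208 ± 32.1 to 312 ± 11.7 CPM, a log2 change of 0.60 ± 0.09 (adjusted p = 0.00103).

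Crat, the carnitine acetyltransferase that exports acetyl groups from mitochondria, had the largest change of the list, 0.94 ± 0.23 (adjusted p = 0.0108). Its levels overlapped, at 114, 117, 121, 124 and 101 CPM in DIO 1 to 5 and 107, 43.8, 50.5, 39.9 and 77.7 CPM in lean 1 to 5, with lean 1 above DIO 5. Acad9, an assembly factor of respiratory complex I that is related to the acyl-CoA dehydrogenases, rose by 0.44 ± 0.08 (adjusted p = 0.00241). The members that did not pass were Bdh2 at -0.02 (adjusted p = 0.918) and Slc16a1, a carrier of lactate and ketone bodies, at 0.06 (adjusted p = 0.861).

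The proximal promoters of genes that moved together are given from RefSeq (GRCm38.p6), which held entries for 78 of the 97 genes named by rule. Each runs from 250 bases before the start of the gene to 50 bases after it, 5′ to 3′ on the gene's strand. Capitals mark matches, on either strand, to AGGTCA, the half-site of nuclear receptors, to CTGGGAA, a site of acute phase regulation, and to GTTAAT, a half-site of hepatocyte nuclear factor 1. The 2 oxidation genes that passed with the index as covariate are shown first.
Acadm (chr3:153944594-153944893, GRCm38.p6, - strand): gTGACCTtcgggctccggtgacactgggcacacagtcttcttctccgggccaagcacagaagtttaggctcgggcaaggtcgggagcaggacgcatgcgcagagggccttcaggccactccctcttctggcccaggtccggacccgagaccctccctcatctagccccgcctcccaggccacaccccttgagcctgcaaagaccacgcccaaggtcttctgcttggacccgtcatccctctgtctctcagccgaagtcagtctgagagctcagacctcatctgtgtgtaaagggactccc
Hadh (chr3:131272052-131272351, GRCm38.p6, - strand): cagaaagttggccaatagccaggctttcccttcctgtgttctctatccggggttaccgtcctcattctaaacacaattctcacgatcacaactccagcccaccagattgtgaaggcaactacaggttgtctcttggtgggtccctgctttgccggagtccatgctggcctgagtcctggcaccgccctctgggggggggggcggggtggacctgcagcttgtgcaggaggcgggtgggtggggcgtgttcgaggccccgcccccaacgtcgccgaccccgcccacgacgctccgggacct
Acadm held 1 match to AGGTCA, on the opposite strand, 249 bases before the start, and Hadh held no match to the 3 motifs in this window. Over 32851 promoters of the same length, 16.3% held AGGTCA, 11.1% CTGGGAA and 7.1% GTTAAT.

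Peroxisomes, which shorten very long and branched fatty acids, gave counts near those of all genes on the CPM scale. Of 14 tested genes 3 rose, 1 fell and 10 did not pass, where 20.9% of all genes rose and 6.06% fell. The list median was 0.112. After rescaling 3 rose and 2 fell, where 8.83% of all genes rose and 12.6% fell. Pex16 and Pex19, which build the peroxisomal membrane, rose by 0.53 ± 0.10 (adjusted p = 0.0032) and 0.51 ± 0.07 (adjusted p = 0.00035). Phyh, which starts the alpha-oxidation of phytanic acid, fell by 0.22 ± 0.07 (adjusted p = 0.0358) from 1955 ± 42.2 to 1679 ± 142 CPM. After rescaling Hao1, a peroxisomal hydroxyacid oxidase, also passed, at -0.32 (adjusted p = 0.0435).

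Genes of glycerolipid synthesis and lipid storage mostly rose. Out of 11 tested, 6 rose, 4 did not pass and 1 fell (Fabp5, above), also after rescaling, and none of the 6 passed with the index as covariate. Of all genes tested 20.9% rose and 6.06% fell, against 8.83% and 12.6% after rescaling. Fitm2, a protein of the endoplasmic reticulum needed to form lipid droplets, stood at 87.7, 84.6, 88.0, 105 and 94.8 CPM in DIO 1 to 5 and 55.0, 56.8, 43.6, 37.2 and 65.0 CPM in lean 1 to 5. There was no overlap, and Fitm2 rose by 0.85 ± 0.13 (adjusted p = 0.00103), or 0.41 (adjusted p = 0.194) with the covariate. Acsl3, an acyl-CoA synthetase found on growing droplets, rose by 0.70 ± 0.14 (adjusted p = 0.0047), and Gk, the glycerol kinase, by 0.63 ± 0.15 (adjusted p = 0.0103). Lpgat1, a lysophosphatidylglycerol acyltransferase, rose by 0.43 ± 0.09 (adjusted p = 0.00743), and Nceh1, a hydrolase of ether lipids and cholesteryl esters, by 0.59 ± 0.15 (adjusted p = 0.0126). Fabp4, the binding protein of adipocytes and macrophages, rose from 7.84 ± 1.49 to 15.1 ± 4.92 CPM, by 0.83 ± 0.19 (adjusted p = 0.00831), and was tested only through its level in DIO. G0s2, an inhibitor of triglyceride lipase, did not pass at 0.27 (adjusted p = 0.571).

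In the route that makes new fatty acids, enzymes moved both ways. The 11 tested genes comprised 2 that rose, 3 that fell and 6 that did not pass, with 1 rise and 3 falls after rescaling. Shares over all genes were 20.9% risen and 6.06% fallen, and 8.83% and 12.6% after rescaling. G6pdx, which supplies NADPH from glucose 6-phosphate, stood at 5.59, 4.67, 7.41, 4.79 and 4.56 CPM in DIO 1 to 5 and 25.9, 13.6, 8.91, 10.9 and 17.5 CPM in lean 1 to 5. All DIO values were low and the lean values spread over a wide range above them. The change was -1.28 ± 0.24 (adjusted p = 0.00262) and -1.95 (adjusted p = 0.0126) with the covariate. Since it averaged under 10 CPM in DIO, G6pdx passed the filter through the lean libraries. Elovl6, which lengthens palmitate, fell by 0.79 ± 0.22 (adjusted p = 0.0216) from 308 ± 117 to 172 ± 36.7 CPM, with overlap. Pklr, the liver pyruvate kinase that feeds sugar carbon into this route, fell by 0.43 ± 0.14 (adjusted p = 0.0429). Hsd17b12, which acts in the lengthening of long chains, rose by 0.48 ± 0.09 (adjusted p = 0.0032). Idh1 rose by 0.22 ± 0.06 (adjusted p = 0.0255) but did not pass after rescaling (adjusted p = 0.519). Acss2, the cytosolic acetyl-CoA synthetase, did not pass at -0.39 (adjusted p = 0.338).

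Of 7 tested genes of cholesterol synthesis 2 rose, 0 fell and 5 did not pass, where 20.9% of all genes rose and 6.06% fell. Fdps, the farnesyl diphosphate synthase, rose from 13.3 ± 1.77 to 21.4 ± 5.66 CPM without overlap, by 0.63 ± 0.15 (adjusted p = 0.0104), and passed with the covariate at 1.07 (adjusted p = 0.0241). Hsd17b7 was the other. Nsdhl was at 0.55 (adjusted p = 0.0887) and Insig2, which holds back the activation of this pathway, at 0.09 (adjusted p = 0.871). Lipoprotein assembly showed little change: 1 of 8 tested genes rose, the fatty acid transporter Slc27a4, by 0.52 ± 0.08 (adjusted p = 0.000766). The apolipoprotein gene Apoa2 was at 0.08 (adjusted p = 0.487) and Mttp, which loads lipid onto apolipoprotein B, at 0.13 (adjusted p = 0.155). In the sphingolipid list 1 of 6 tested genes rose, Cers6, the ceramide synthase that prefers palmitoyl chains. Its levels were 17.3, 17.8, 31.5, 28.2 and 15.1 CPM in DIO 1 to 5 and 10.0, 8.73, 7.82, 4.72 and 6.41 CPM in lean 1 to 5. Cers6 averaged under 10 CPM in lean libraries and was tested only through its level in DIO, where it was higher without overlap, by 1.41 ± 0.22 (adjusted p = 0.00106), while Cers2, the main ceramide synthase of liver for very long chains, was at 0.05 (adjusted p = 0.533).

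Bile acid genes fell where they passed. Among 4 tested genes there were 0 rises and 3 falls, with the same counts after rescaling and no call with the index as covariate. Over all genes 20.9% rose and 6.06% fell, or 8.83% and 12.6% after rescaling. Cyp7b1, the oxysterol hydroxylase of the alternative route, stood at 130.1, 103, 34.1, 111 and 125 CPM in DIO 1 to 5 and 223, 222, 264, 339 and 219 CPM in lean 1 to 5. DIO 3 was lowest by far, and all DIO values lay under the lean ones. It changed by -1.44 ± 0.31 (adjusted p = 0.00668), which shrank to -0.43 (adjusted p = 0.585) with the covariate. Cyp27a1, which starts the same route in mitochondria, fell by 0.35 ± 0.08 (adjusted p = 0.00901), and Abcb11, the export pump of bile salts, fell by 0.51 ± 0.11 (adjusted p = 0.00794). Cyp7a1, the rate-limiting enzyme of the classical route, stood at 128, 61.5, 27.4, 46.9 and 192 CPM in DIO 1 to 5 and 71.0, 37.5, 78.6, 25.5 and 44.7 CPM in lean 1 to 5. These ranges overlapped widely, and the change of 0.60 ± 0.48 (adjusted p = 0.391) did not pass.

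**Figure D4:**
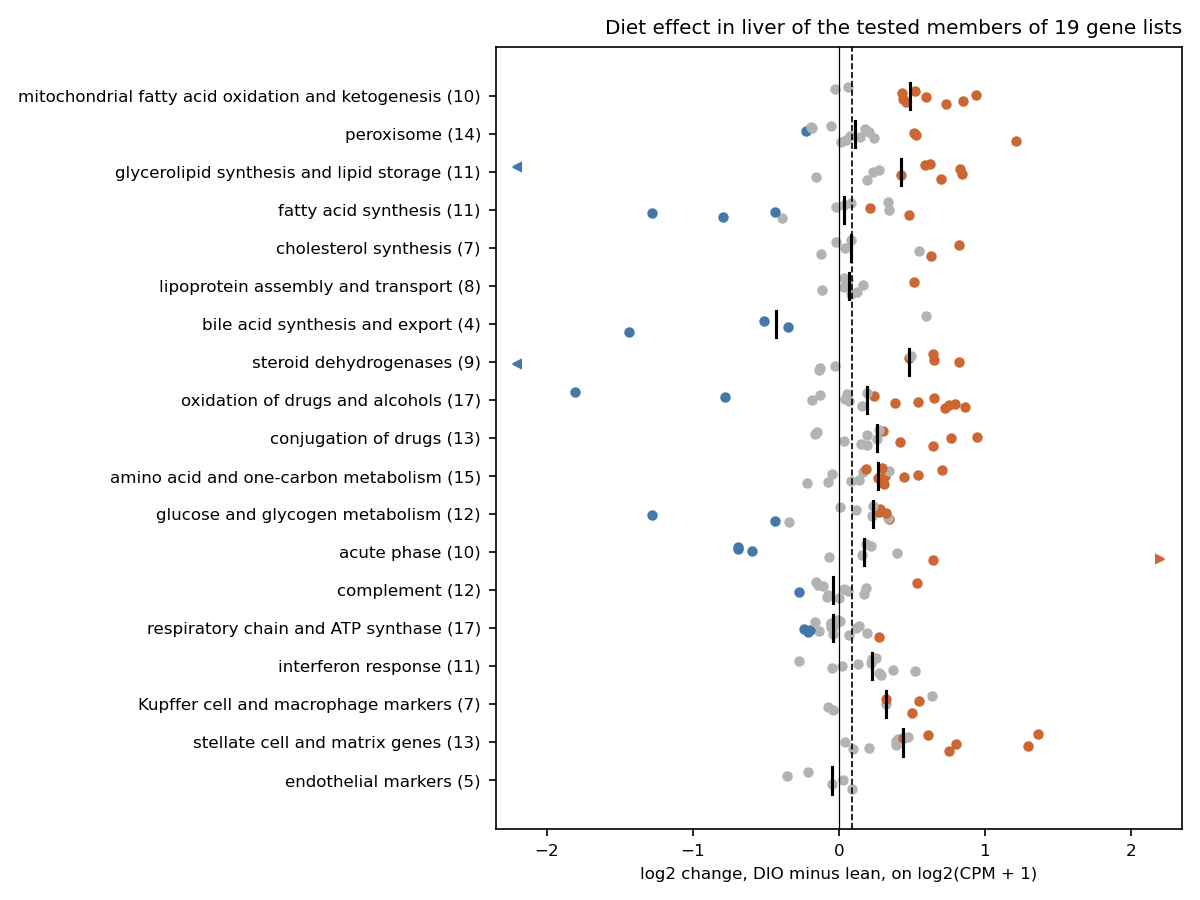
Log2 change between diets (horizontal axis, DIO minus lean on log2(CPM + 1)) of the tested members of 19 gene lists, with the number tested in brackets. Points are genes, orange where they rose and blue where they fell past an adjusted p of 0.05 and grey otherwise, and arrowheads are genes beyond the axis. Short bars are list medians and the dashed line is the median of all genes, 0.089; the fatty acid oxidation list lies to the right of it and the bile acid list to the left.

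Among enzymes that oxidise drugs and alcohols 17 were tested, and 8 rose, 2 fell and 7 did not pass, against 5, 2 and 10 after rescaling. Rises also outnumbered falls over all genes, at 20.9% and 6.06%, but not after rescaling, at 8.83% and 12.6%. The flavin monooxygenases Fmo5, Fmo1 and Fmo2 rose by 0.76 ± 0.10 (adjusted p = 0.000333), 0.73 ± 0.11 (adjusted p = 0.000866) and 0.86 ± 0.20 (adjusted p = 0.00964); Fmo2 averaged under 10 CPM in lean libraries and was tested only through DIO. Aox1, an aldehyde oxidase, rose from 93.2 ± 20.6 to 161 ± 25.9 CPM, by 0.79 ± 0.16 (adjusted p = 0.00387). Cryz, a quinone reductase, rose by 0.65 ± 0.07 (adjusted p = 0.00015) and passed with the covariate (adjusted p = 0.0428). Cyp2u1, which hydroxylates long-chain fatty acids, fell by 0.78 ± 0.17 (adjusted p = 0.00664). Aox3, Ephx1 and Cyp20a1 rose on the CPM scale only, with adjusted p of 0.169, 0.0827 and 0.292 after rescaling. The alcohol dehydrogenase genes Adh1, Adh4 and Adh5 did not pass, at 0.07 (adjusted p = 0.58), -0.18 (adjusted p = 0.402) and 0.04 (adjusted p = 0.655).

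Selenbp2, a selenium binding protein gene of this list with a near copy in Selenbp1, varied widely among lean livers. It stood at 46.9, 42.9, 16.3, 42.0 and 79.4 CPM in DIO 1 to 5 and 97.6, 113, 242, 415 and 57.3 CPM in lean 1 to 5. Lean 3 and lean 4, the 2 libraries with the highest index, were highest, and lean 5 lay within the DIO range. The change of -1.81 ± 0.51 (adjusted p = 0.023) turned to 0.38 (adjusted p = 0.55) with the index as covariate. Leaving out 1 library raised its adjusted p to as much as 0.0582.

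Conjugation enzymes attach glucuronic acid, glutathione or sulfate to drugs and hormones. In this list 5 of 13 tested genes rose, 0 fell and the remaining 8 did not pass. Rescaling left 4 rises. Of all genes 20.9% rose and 6.06% fell, or 8.83% and 12.6% after rescaling. Ugt1a1, which glucuronidates bilirubin, stood at 186, 162, 201, 217 and 183 CPM in DIO 1 to 5 and 109, 138, 111, 112 and 136 CPM in lean 1 to 5, without overlap. Its change was 0.65 ± 0.10 (adjusted p = 0.000799). Ugt1a6b rose by 0.42 ± 0.09 (adjusted p = 0.00499); genes of the Ugt1a locus share their last exons, so how reads were split among them is uncertain. The glutathione transferase genes Gstm3 and Gstm2, members of a family of close copies, rose by 0.94 ± 0.29 (adjusted p = 0.0317) and 0.77 ± 0.17 (adjusted p = 0.00647). Gstm3 overlapped between diets and stood at 41.0, 84.5, 149.99, 88.3 and 46.9 CPM in DIO 1 to 5. Nr1i3, the nuclear receptor CAR that controls many of these enzymes, was itself among the largest rises. It held 466, 307, 215, 407 and 386 CPM in DIO 1 to 5 and 186, 137, 107, 75.3 and 182 CPM in lean 1 to 5, with no overlap, and changed by 1.40 ± 0.26 (adjusted p = 0.0029), or 0.96 (adjusted p = 0.244) with the covariate.

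Nr1i3 belongs to the list of liver transcription factors, in which 14 genes were tested, with 4 rises and 0 falls against 20.9% and 6.06% of all genes. After rescaling the list had 2 rises, Nr1i3 and Nfe2l2. Nfe2l2, the regulator of the oxidative stress response, rose by 0.51 ± 0.12 (adjusted p = 0.011), or 0.14 (adjusted p = 0.694) with the covariate. Hnf4a, a master regulator of hepatocyte identity, was at -0.23 (adjusted p = 0.197), and Nr1h3, the oxysterol receptor LXR alpha, at -0.02 (adjusted p = 0.829). Of 4 tested clock genes 2 rose, and neither passed after rescaling. One was Per2, which rose by 0.84 ± 0.28 (adjusted p = 0.046), or 0.71 (adjusted p = 0.114) after rescaling. Per2 was at 42.9, 20.5, 16.1, 38.4 and 44.7 CPM in DIO 1 to 5, so DIO 2 and DIO 3 lay within the lean range of 11.3 to 21.3 CPM.

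Among 15 tested genes of amino acid and one-carbon metabolism 8 rose, 0 fell and 7 did not pass; 3 rose after rescaling and 4 passed with the covariate. The shares of all genes that rose were 20.9% and, after rescaling, 8.83%. Maob, the monoamine oxidase B gene, stood at 308, 281, 343, 328 and 283 CPM in DIO 1 to 5 and 189, 187, 182, 193 and 189 CPM in lean 1 to 5. The lean values were nearly equal and all lay below the DIO values, and Maob rose by 0.71 ± 0.07 (adjusted p = 6.34e-05), or 0.60 (adjusted p = 0.0241) with the covariate. Sardh, which degrades sarcosine, rose by 0.54 ± 0.12 (adjusted p = 0.00664), and Mccc1, a subunit of the leucine-degrading carboxylase, by 0.44 ± 0.08 (adjusted p = 0.0023). In the urea cycle list Cps1, the entry enzyme, fell by 0.65 ± 0.19 (adjusted p = 0.0242), from 2378, 4378, 4142, 5072 and 3905 CPM in lean 1 to 5 to 3211, 2048, 2507, 2489 and 2174 CPM in DIO 1 to 5. Lean 1 lay within the DIO range. Glul, the glutamine synthetase of hepatocytes around the central vein, rose by 0.44 ± 0.06 (adjusted p = 0.000539) without overlap and passed with the covariate at 0.44 (adjusted p = 0.0487). Otc, the next enzyme of the cycle, was at 0.11 (adjusted p = 0.151).

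Among glucose genes the rises did not pass after rescaling, while the falls did. Of 12 tested genes of glucose and glycogen metabolism 4 rose and 2 fell, and after rescaling 0 rose and 2 fell (G6pdx and Pklr). Pck1, the gate of gluconeogenesis, was at -0.34 (adjusted p = 0.179), and Slc2a2, the hepatocyte glucose transporter, at 0.34 (adjusted p = 0.0243), with 0.21 (adjusted p = 0.225) after rescaling. The insulin and energy list had 8 tested genes, of which 2 rose and 1 fell, against 2 rises and 2 falls after rescaling. Shares of all genes that rose and fell were 20.9% and 6.06%, or 8.83% and 12.6% after rescaling. In this list Txnip, a glucose-responsive inhibitor of thioredoxin, rose by 0.76 ± 0.18 (adjusted p = 0.00971) from 96.5 ± 16.9 to 167 ± 43.4 CPM, with overlap. Igfbp5, another binding protein of insulin-like growth factors, rose by 1.03 ± 0.18 (adjusted p = 0.00185), opposite to Igfbp2, and was tested only through its level in DIO. Irs1, an adaptor of the insulin receptor, was at -0.33 (adjusted p = 0.091) and passed only after rescaling, at -0.46 (adjusted p = 0.0218). Car3, the abundant carbonic anhydrase of liver, fat and muscle, rose from 2216 ± 673 to 3678 ± 184 CPM, by 0.79 ± 0.18 (adjusted p = 0.009), or 1.28 (adjusted p = 0.03) with the covariate.

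The 3 fibrinogen chains, which are secreted as one clotting protein and lie side by side in the genome, fell together. Fgb stood at 2928, 3715, 2989, 2683 and 2721 CPM in DIO 1 to 5 and 4395, 5276, 5523, 4619 and 4349.5 CPM in lean 1 to 5. Fga stood at 3105, 4251, 3396, 3016 and 2805 CPM in DIO 1 to 5 and 4746, 5655, 5222, 4852 and 4353 CPM in lean 1 to 5. Fgg stood at 2415, 3341, 2651, 2341 and 2326 CPM in DIO 1 to 5 and 3828, 4583, 4587, 4294 and 3691 CPM in lean 1 to 5. In each chain DIO 2 was the highest DIO library and all DIO values lay below all lean ones. Log2 changes were -0.59 ± 0.11 (adjusted p = 0.0032) for Fga, -0.69 ± 0.10 (adjusted p = 0.000866) for Fgb and -0.69 ± 0.11 (adjusted p = 0.00114) for Fgg. With the index as covariate they were -0.59 (adjusted p = 0.128), -0.63 (adjusted p = 0.0901) and -0.60 (adjusted p = 0.111) in the same order. In 1 fit over all libraries of the atlas, which shares 1 estimate of the spread among tissues, none of the 3 passed (adjusted p = 0.733, 0.681 and 0.651). The 3 genes are among the 15 hepatocyte markers, 7 of which had the higher mean in DIO.

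The promoters of the fibrinogen genes are shown as those of the clearest set of neighbouring genes that fell, with capitals marking the same 3 motifs.
Fga (chr3:83025903-83026202, GRCm38.p6, + strand): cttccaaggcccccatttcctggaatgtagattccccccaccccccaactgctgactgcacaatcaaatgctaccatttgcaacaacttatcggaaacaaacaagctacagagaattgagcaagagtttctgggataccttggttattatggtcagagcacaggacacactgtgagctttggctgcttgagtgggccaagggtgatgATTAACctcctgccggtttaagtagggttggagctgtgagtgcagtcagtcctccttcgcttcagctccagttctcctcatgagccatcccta
Fgb (chr3:83049814-83050113, GRCm38.p6, - strand): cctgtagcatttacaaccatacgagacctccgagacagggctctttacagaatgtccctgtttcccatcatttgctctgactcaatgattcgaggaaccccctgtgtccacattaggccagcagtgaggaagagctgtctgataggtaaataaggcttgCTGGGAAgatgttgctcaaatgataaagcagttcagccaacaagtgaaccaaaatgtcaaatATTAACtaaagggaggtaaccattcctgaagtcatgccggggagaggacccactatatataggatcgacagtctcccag
Fgg (chr3:83007474-83007773, GRCm38.p6, + strand): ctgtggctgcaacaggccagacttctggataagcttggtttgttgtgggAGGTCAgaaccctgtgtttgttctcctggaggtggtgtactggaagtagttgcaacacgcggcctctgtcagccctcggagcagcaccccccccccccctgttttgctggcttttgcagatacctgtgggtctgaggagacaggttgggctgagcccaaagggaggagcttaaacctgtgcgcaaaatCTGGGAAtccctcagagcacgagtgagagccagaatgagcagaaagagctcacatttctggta
CTGGGAA was found in Fgb, 91 bases before the start, and in Fgg, 13 bases before it. GTTAAT was found on the opposite strand in Fga and Fgb, 43 and 29 bases before the start. Fgg also held AGGTCA, 201 bases before the start.

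Other genes of the acute phase did not follow fibrinogen. Out of 10 tested, 2 rose, 5 did not pass and the 3 that fell were the fibrinogen chains. Over all genes 20.9% rose and 6.06% fell. Lbp, which presents bacterial lipopolysaccharide to immune cells, rose by 0.65 ± 0.15 (adjusted p = 0.0104), beside Lcn2. The pentraxin genes Crp and Apcs were at -0.07 (adjusted p = 0.616) and 0.16 (adjusted p = 0.61). In coagulation Serpinc1, the gene of antithrombin, fell by 0.18 ± 0.06 (adjusted p = 0.0358), and F5 and F9 rose by 0.41 ± 0.11 (adjusted p = 0.018) and 0.28 ± 0.07 (adjusted p = 0.0143) but did not pass after rescaling. Prothrombin, F2, was at 0.01 (adjusted p = 0.936). Of 12 complement genes 1 rose, 1 fell and 10 did not pass: Cd59a, which blocks the membrane attack complex, rose by 0.54 ± 0.08 (adjusted p = 0.000766), and Cfhr2, a factor H related gene with close copies, fell by 0.27 ± 0.07 (adjusted p = 0.0172).

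Of 14 tested genes of endoplasmic reticulum and oxidative stress 3 rose and 2 fell; Prdx4, a peroxiredoxin of the secretory pathway, fell by 0.43 ± 0.07 (adjusted p = 0.000866), and Hspa5, the main chaperone there, was at -0.04 (adjusted p = 0.946). In the respiratory chain and ATP synthase 17 genes were tested, of which 1 rose and 3 fell, against 0 and 5 after rescaling. Over all genes 20.9% rose and 6.06% fell, or 8.83% and 12.6% after rescaling. Ndufa8, Ndufb5 and Ndufa1, subunits of complex I, fell, with log2 changes of -0.24 ± 0.08 (adjusted p = 0.0438), -0.21 ± 0.06 (adjusted p = 0.0288) and -0.20 ± 0.06 (adjusted p = 0.0277), none of them passing with the covariate. Ndufc1 and Atp5e of this list are also genes of the index. Among 9 tested metal genes 2 rose and 0 fell on the CPM scale, one of them Aco1, by 0.34 (adjusted p = 0.00159), and neither passed after rescaling. Slc30a10, a manganese exporter, was at -0.64 (adjusted p = 0.0776) and passed only after rescaling, at -0.77 (adjusted p = 0.0317).

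Markers of other liver cells were compared because the libraries hold whole tissue. In bulk tissue fewer cells of a type and less RNA per cell cannot be told apart. Among stellate cell and matrix genes 13 were tested, with 6 rises and 0 falls, and after rescaling 3 rises (Sulf2, Col3a1 and Lrat). Over all genes 20.9% rose and 6.06% fell, or 8.83% and 12.6% after rescaling. The 21 genes of the list summed to 1884 to 2376 CPM in DIO and 1684 to 2319 CPM in lean, and all 21 had the higher mean in DIO, as did most genes tested, 1154 of 1699 having a positive log2 change. Col3a1, a collagen of scar tissue, stood at 33.9, 62.8, 139, 67.3 and 47.0 CPM in DIO 1 to 5 and 29.0, 31.2, 26.0, 23.985 and 16.7 CPM in lean 1 to 5. DIO 3 was highest and DIO 1 just above the lean range, and the change was 1.29 ± 0.30 (adjusted p = 0.0097), or 0.73 (adjusted p = 0.445) with the covariate. Sulf2, which trims heparan sulfate, rose by 1.36 ± 0.17 (adjusted p = 0.000307) and passed with the covariate at 1.29 (adjusted p = 0.0428). Lrat, the retinol-storing enzyme of stellate cells, rose by 0.75 ± 0.20 (adjusted p = 0.0171).

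Of 7 tested Kupffer cell and macrophage markers Cybb, Cd5l and Mertk rose, by 0.55 ± 0.19 (adjusted p = 0.049), 0.50 ± 0.16 (adjusted p = 0.0405) and 0.32 ± 0.10 (adjusted p = 0.0355), and 0 of the 7 passed after rescaling. Over all genes 20.9% rose, and 8.83% after rescaling. The sum of all 18 ran from 272 to 399 CPM in DIO and from 221 to 336 CPM in lean, with 17 of 18 higher on average in DIO. Of the 1699 genes tested, 1154 also had a positive log2 change. Of the 18 markers 11 lay under the filter of 10 CPM. With a filter at 1 CPM 4 of the 18 rose (22.2%), against 19% of all genes. Vsig4, a marker of resident Kupffer cells, was at -0.04 (adjusted p = 0.915). Cholangiocyte markers summed to 132 to 209 CPM in DIO and 106 to 126 CPM in lean, and both tested members, Tm4sf4 and Notch2, rose, by 0.38 (adjusted p = 0.0443) and 0.36 (adjusted p = 0.0107). After rescaling Tm4sf4 did not pass, at 0.25 (adjusted p = 0.108), and Notch2 did, at 0.23 (adjusted p = 0.0347). With the covariate Tm4sf4 changed sign to -0.05. DIO 3 held the highest level of Tm4sf4, Notch2, Cybb, Col3a1 and Col6a3. The Kupffer cell marker Marco, which lay under the filter, went the other way. It was lowest in DIO 3 at 0.242 CPM, against 7.75 to 23.0 CPM in the other DIO libraries. For endothelial markers limma called 0 of 5, with 2 at an unadjusted p under 0.05 and 2 called by edgeR and by DESeq2, and their sums overlapped at 183 to 257 CPM in DIO and 193 to 243 CPM in lean. After rescaling 2 of the 5 were lower in DIO, S1pr1 at -0.49 (adjusted p = 0.0094) and Fcgr2b at -0.34 (adjusted p = 0.0145). Of 11 tested interferon response genes limma called 0, with 3 at an unadjusted p under 0.05, 0 called by edgeR and 1 by DESeq2. After rescaling 1 was lower in DIO, Mov10, an RNA helicase, at -0.40 (adjusted p = 0.0345). Among markers of other tissues Fabp2, the intestinal fatty acid binding protein, rose by 0.91 ± 0.12 (adjusted p = 0.000466) from 96.5 ± 21.6 to 179 ± 13.8 CPM. Alas2, the haem synthesis gene of red cell precursors, was at -0.23 (adjusted p = 0.298). The part of these cell types in the results above was not tested.

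Whether the liver responded unlike other tissues was tested against kidney and the white fat labelled eWAT, each with 5 DIO and 5 lean libraries. The diet effect differed between liver and kidney for 259 of 1500 genes expressed in both (17.3%). Of the 395 genes among them that were called in liver, 210 differed, a count that rests on genes picked for their liver change. Among those of lowest p were Hadh, Wwtr1 and Gpc1. Hadh was higher in lean kidney than in lean liver and changed there by 0.08, a difference of 0.77 ± 0.08 (adjusted p = 2.78e-06). Wwtr1, the transcriptional coactivator TAZ of the Hippo pathway, stood at 32.1, 31.8, 37.2, 33.5 and 33.2 CPM in liver DIO 1 to 5 and 16.8, 19.6, 16.5, 14.4 and 17.9 in lean 1 to 5. In kidney Wwtr1 changed by 0.05, and the difference was 0.90 ± 0.09 (adjusted p = 2.78e-06). Gpc1 changed by -0.18 in kidney, a difference of 2.16 ± 0.25 (adjusted p = 1.11e-05). These 3 genes also passed with the index as covariate.

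Against eWAT the diet effect differed for 677 of 1523 genes (44.5%), and for 223 of the 395 called in liver. Fabp5 went opposite ways: it fell in liver and was at 434 ± 65.8 CPM in DIO against 238 ± 41.0 CPM in lean eWAT, a change of 0.87 and a difference of -4.88 ± 0.35 (adjusted p = 3.76e-09). Fmo1 rose in liver from 153 ± 24.7 to 253 ± 30.0 CPM, while in eWAT it was at 64.9 ± 20.0 CPM in DIO and 266 ± 12.5 CPM in lean. The difference for Fmo1 was 2.80 ± 0.23 (adjusted p = 1.67e-08). Gsta3, a glutathione transferase, changed by 0.30 (adjusted p = 0.0154) in liver, with 0.17 (adjusted p = 0.207) after rescaling, and by -3.00 in eWAT, a difference of 3.30 ± 0.22 (adjusted p = 2.06e-09). Nceh1 rose in both, by 0.59 in liver and 4.74 in eWAT, where lean libraries averaged 6.04 CPM and DIO libraries 191 CPM. Its difference was -4.15 ± 0.32 (adjusted p = 4.76e-09).

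**Figure D5:**
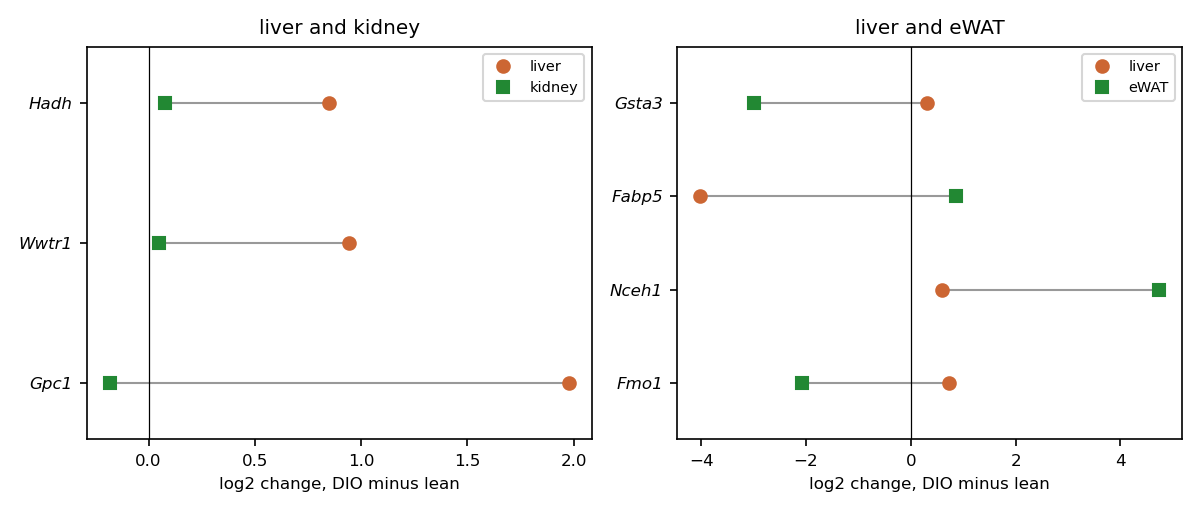
Log2 change between diets on log2(CPM + 1) (horizontal axis, DIO minus lean) of 3 genes compared with kidney and 4 compared with eWAT, in liver (circles) and in kidney or eWAT (squares). In kidney Gpc1 at -0.18, Wwtr1 and Hadh lie near 0, and in eWAT Fabp5, Gsta3 and Fmo1 lie on the other side of 0 from liver.

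Of the 458 genes, 105 kept their call and direction under every alternative setting but the index covariate and the filter at 50 CPM, and 35 also with the covariate, 29 of them higher and 6 lower in DIO. Among them were Hadh, Acadm, Maob, Cryz, Hsd17b10, Fdps, Sulf2, Gpc1, Adora1, G6pdx and Fabp5. Hsd3b5, Lcn2, Igfbp2, Cyp7b1, Nr1i3 and the fibrinogen genes were not, and lost their call with the index covariate. Ildr2, at 41.5 ± 9.60 against 7.86 ± 2.81 CPM, and Lamb3, at 18.4 ± 5.63 against 3.57 ± 1.13 CPM, had the largest rises of the 35 and are named after their values were seen. Both averaged under 10 CPM in lean libraries and were tested only through their level in DIO. Of the 88 genes that passed and were named by rule, 42 did not pass in 1 fit over all libraries and 18 lost their call when 1 library was left out, most often without DIO 4 (16) or DIO 2 (14). These 18 were Cd5l, Col6a3, Cps1, Cybb, Elovl6, F5, Gstm3, Mertk, Ndufa1, Ndufa8, Ndufb5, Per2, Phyh, Pklr, Selenbp2, Slc1a2, Slc2a2 and Tm4sf4.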

How the data were processed

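RNA of 5 DIO and 5 lean livers was compared. The authors deposited CPM values per gene, from stranded mRNA libraries read as pairs on an Illumina HiSeq, per the labels' protocols. FastQC, STAR, HTSeq and DESeq2 are named in the submitters' processing notes, with no version; no source used here gives the genome build or the settings. Whole reads were recovered from the CPM (100% of values within 0.001 read), and 1 column that matched no sample was not used. Diet was tested by limma 3.58.1 in R 4.3.3 (trend option) on log2(CPM + 1) for genes averaging 10 CPM or more, with Benjamini-Hochberg adjustment at 0.05. This scale understates the fold of low genes. edgeR 4.0.16 and DESeq2 1.42.0 were run on the recovered reads as alternatives, beside other pseudocounts, filters, rescaling, array weights, a fit over all libraries, the index and leaving out each library. Libraries of one diet differed by a chi-square of at least 8.97 per degree of freedom, and none was counted as a duplicate. Differences between tissues were tested as an interaction over 20 libraries each. The fits were tested on simulated data. The liver libraries and the 32 gene lists were chosen with earlier results of these data known. Named genes were up to 12 of the largest rises and of the largest falls past the threshold that did not overlap and averaged 50 CPM or more in one diet, up to 4 members of each list, and up to 4 genes per tissue comparison; list members named beyond these were chosen after their values were seen. Some genes that these rules choose are not reported here.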

Additional observations from a re-analysis of the deposited data

Results flagged for a closer look

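Among 194 groups of 5 libraries (the 97 genes named by rule in each diet), 11 had a highest or lowest library set apart from the rest by more than 0.71 of the group's range of log2(CPM + 1); chance gives about 1 in 20. Of the 11, 4 lay in DIO 3. There Cyp7b1 was at 34.1 CPM against 103 to 130.05 in the other DIO libraries, Slc1a2 at 136 against 234 to 260.2, Cyp2u1 at 16.8 against 27.97 to 32.4, and Phyh at 1433 against 1718 to 1802. Gsta3 was lowest in DIO 2 at 1312 CPM. In lean libraries Fabp2 was highest in lean 1 at 135 CPM, Fmo1 highest in lean 1 at 196, Cd5l highest in lean 2 at 105 and Smc4 highest in lean 5 at 15.8. Dnajc10 was lowest in lean 1 at 22.3 CPM and Mertk lowest in lean 4 at 15.3.

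The 7 genes named for the lowest p of the interaction test are listed here as those whose diet effect differed between liver and another tissue; their number was fixed by that choice, and 210 and 223 of the 395 genes called in liver differed from kidney and eWAT. Against kidney the difference in log2 change was 0.77 for Hadh, 0.90 for Wwtr1 and 2.16 for Gpc1. Against eWAT it was 3.30 for Gsta3, -4.88 for Fabp5, -4.15 for Nceh1 and 2.80 for Fmo1.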

How the results depend on the processing

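The 458 genes (355 higher, 103 lower) became 57 (39 and 18) with the index as covariate, 256 (192 and 64) with a class term that sets lean 3 and lean 4 apart, 140 (113 and 27) in 1 fit over all libraries of the atlas, and 219 (154 and 65) with a filter at 50 CPM, which tests fewer genes. Rescaling gave 150 higher and 214 lower, edgeR 183 and 186, and DESeq2 268 and 251. Leaving out 1 library gave 304 to 439 genes, 238 to 355 higher and 66 to 102 lower, lowest without DIO 4. The difference from kidney held for 95 genes with the covariate, in place of 259, and for 209 to 295 with 1 library left out. From eWAT it held for 1141 genes at a mean of 1 CPM, in place of 677, where more genes were tested, and for 610 to 719 with 1 library left out. For the other changes the cause was not tested. With the covariate Selenbp2 turned to 0.38 and Tm4sf4 to -0.049; no other named gene that was called turned its direction under any setting. Of 88 named genes that were called, 18 lost their call in at least 1 leave-one-out fit. No paired analysis was possible because the labels give no replicate numbers and do not tie libraries of the 2 diets to each other. Depth was 19.72 M to 27.99 M reads per library, and libraries of one diet differed by at least 8.97 times the counting noise in chi-square per degree of freedom.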

Other observations

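Several listed genes lay under the filter of 10 CPM and are described from the fit with a filter at 1 CPM, which called 515 of 2716 genes higher and 124 lower. Mogat1, a monoacylglycerol acyltransferase that feeds triglyceride synthesis, stood at 4.77, 10.3, 10.2, 9.54 and 6.68 CPM in DIO 1 to 5 and 1.04, 0.551, 0.335, 0.507 and 0.377 CPM in lean 1 to 5, and rose by 2.54 on log2(CPM + 1) (adjusted p = 8.02e-06 by limma). Hao2, a peroxisomal hydroxyacid oxidase, stood at 3.94, 3.02, 18.0, 3.36 and 2.40 CPM in DIO 1 to 5 and at no more than 0.113 CPM in lean libraries (adjusted p = 0.000918). Mogat1 and Hao2 averaged under 1 CPM in lean libraries and passed this filter only through DIO, where they are high. Il1rn, the antagonist of the interleukin 1 receptor, was at 6.19 ± 0.319 against 1.92 ± 0.604 CPM and rose by 1.32 (adjusted p = 3.58e-05).

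Of 20 cell proliferation genes 11 were tested at that filter. Of these 7 rose, 0 fell and 4 did not pass, where 19% of all genes rose. The filter favours rises here, since 4 of the 7 (Ccna2, Ccne2, Bub1b and Tpx2) averaged under 1 CPM in lean libraries and passed it only through DIO. Mcm6 and Mcm3, subunits of the DNA replication helicase, were at 9.69 ± 3.31 against 4.29 ± 0.346 CPM and 7.93 ± 1.74 against 3.92 ± 0.583 CPM, with adjusted p of 0.0031 and 0.00108. E2f1, a transcription factor of the G1 to S transition, was at 5.68 ± 1.01 against 2.90 ± 0.307 CPM (adjusted p = 0.000892). Ccna2, a cyclin of the S and G2 phases, stood at 1.46, 2.43, 4.27, 1.89 and 0.995 CPM in DIO 1 to 5 and 1.17, 0.805, 0.502, 0.761 and 0.867 CPM in lean 1 to 5, with DIO 3 highest and DIO 5 within the lean range. At a few CPM the log2(CPM + 1) scale understates these changes.

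All 16 tested genes of cytosolic ribosomal proteins, a group chosen after its values were seen, fell, from -0.21 (adjusted p = 0.0459) for Rpl31 to -0.51 (adjusted p = 0.000583) for Rpl12, with a median log2 change of -0.35. All 16 also fell after rescaling, and 1, Rps3a1, passed with the index as covariate. Over all genes tested 6.06% fell, or 12.6% after rescaling. Ribosomal protein genes have near-identical pseudogene copies, so their counts are uncertain. Rpl39 and Rpl22l1 are themselves genes of the index, so the group and the index are not separate measures. Fallen genes were most frequent among the genes of shortest total length, taken over all exons of a gene. Of the 425 genes up to 3226 bases 46 fell and 71 rose, against 18 and 81 of the 425 longest. In between, 16 fell and 105 rose from 3227 to 5115 bases, and 23 fell and 98 rose from 5122 to 7951 bases. The shares over all genes tested were 6.06% fallen and 20.9% risen. Ribosomal protein genes have short transcripts, and the part of length in their fall was not tested.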
